A study of Homo sapiens with 2 samples.

Results

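To find out which genes of the centrosome carried an RFX6 peak in hepatocellular carcinoma (HCC) cells, 53 protein-coding genes were looked up in the deposited peak list. These were the 39 genes of the RefSeq table whose symbol is CEP followed by a digit, and 14 genes chosen by name. Most of the 14 have a part in building centrioles or nucleating microtubules. The members were thus 53 of the 20037 protein-coding genes in the table. The gene known as CENPJ is listed there as CPAP and is called CPAP here. Earlier results of these data were known when the genes were chosen.

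The data came from MHCC-97H, a human HCC cell line, in which RFX6 carrying an HA tag was overexpressed. The ChIP assays of the study used an antibody to the tag, with RFX6 made from a plasmid and thus above the level of the cells' own protein. The series has 1 HA-RFX6 ChIP library, to which the peak list belongs, and 1 MHCC-97H input library, and no replicates. Neither values of the input nor a precipitation from cells without the tagged protein were used here.

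The centrosome is the main microtubule-organising centre of animal cells. It holds a pair of centrioles inside a protein matrix, the pericentriolar material, where gamma-tubulin complexes start new microtubules. Centrioles are copied once per cell cycle under the control of the kinase PLK4, and the older centriole forms the base of the primary cilium. The RFX family of transcription factors is known for binding the X-box, a motif in the promoters of many ciliary genes, whereas RFX6 itself is known for its role in the endocrine pancreas.

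Of 6214 lines, 5019 distinct intervals on the chromosomes were used. Their score, a whole number whose meaning is not given, had quartiles of 22 and 39 around a median of 30, and serves here as a rank within the list. As the read depth was unknown, absence of an interval may mean absence of a peak or too few reads, which cannot be told apart. Confidence intervals are Wilson intervals at 95% and cover the counting of genes alone.

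Of the 53 genes, 11 had an interval whose midpoint was within 1 kb of either end of the gene. These were PCM1, CEP19, CEP20, CEP76, PCNT, CEP68, CEP63, CEP131, CEP43, CEP57 and CEP85. The share was 20.8% (12.0% to 33.5%), and over all protein-coding genes it was 15.5%, which lies within the interval of the centrosome genes. A single further gene, TUBGCP2, had intervals inside its body and more than 1 kb from both ends, which was 1.89% of the genes, compared with 4.06% of all protein-coding genes. With both positions together there were 12 genes (22.6%, 13.5% to 35.5%), compared with 19.5% of all genes. The remaining 41 genes had no interval. As the centrosome genes are long, with a median of 56.5 kb against 24.1 kb over all genes, they were also set beside the 5649 genes at least as long as their median. Of those genes, 16.6% had an interval at an end and 6.21% in the body alone. With both positions together the share was 22.8%, close to the 22.6% of the centrosome genes.

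**Figure D1:**
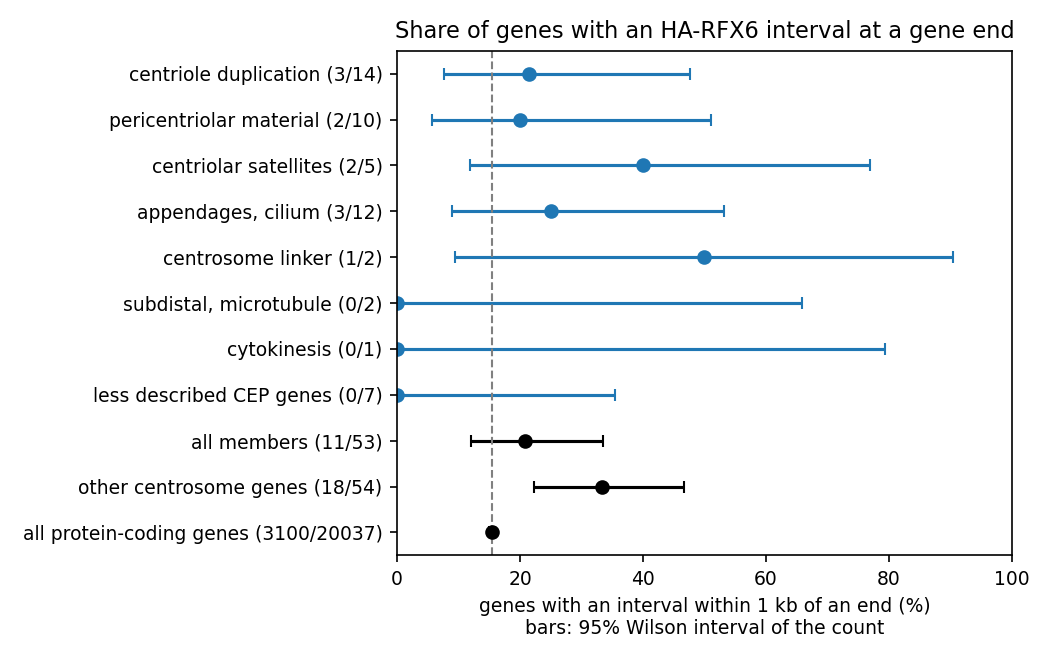
Share of genes (%) with an HA-RFX6 interval within 1 kb of a gene end, by role of the gene (blue) and for all 53 members, 54 other centrosome genes and all protein-coding genes (black). Points are shares, bars are 95% Wilson intervals, and the dashed line is the share over all protein-coding genes, 15.5%. The intervals of all role groups and of all members include the dashed line, and that of the other centrosome genes, from 22.2% to 46.6%, lies above it. The bars cover the counting of genes alone and are no test. The 54 genes were chosen with earlier results of these data known.

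The members were then taken by role. The Wilson interval of every role group included 15.5%, the share over all protein-coding genes, so these counts set no group apart from it. Genes of centriole duplication and elongation were examined first. Of 14 such genes, 3 had an interval at an end, and none of these encodes a part of the cartwheel. CEP76, which limits the copying of centrioles, had an interval of 237 bp on chromosome 18 (12702758 to 12702994), scored 37. CEP63, which brings CEP152 to the parent centriole, had one of 365 bp on chromosome 3 (134486239 to 134486603), scored 32. CEP85, a partner of STIL, had the lowest score of the members, 15, in an interval of 297 bp on chromosome 1 (26233785 to 26234081). That score was at percentile 6.04 of the list, meaning the share of intervals with this score or a lower one, whereas CEP76 was at 69.9 and CEP63 at 56.5. The kinase PLK4, its partner STIL and the cartwheel protein SASS6 had no interval at an end or in the body. The same was true of CPAP and CEP295, which act in centriole elongation, of CEP152 and CEP192, which bring PLK4 to the centriole, and of CEP135, CEP120, CEP97 and CEP44.

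In the pericentriolar material, 2 of 10 genes had an interval at an end. PCNT encodes pericentrin, the large scaffold of this matrix. Its interval of 220 bp on chromosome 21 (46324231 to 46324450) was scored 37. CEP57, which helps to hold the matrix around the centriole, had an interval of 200 bp on chromosome 11 (95790834 to 95791033), scored 22. Of the 5 gamma-tubulin complex genes named TUBGCP, 0 had an interval at an end and 1 had intervals in its body. That gene was TUBGCP2, whose product forms the small gamma-tubulin complex with that of TUBGCP3. Its higher interval, 276 bp on chromosome 10 (133289978 to 133290253) and scored 46, was 22222 bp downstream of the gene start. Its other interval, 217 bp (133308923 to 133309139) and scored 17 on 2 lines of the list, was 3306 bp downstream of the start and 117 bp from an end of ZNF511, a zinc finger gene. The midpoint of this interval was also 159 bp upstream of another start that RefSeq lists for TUBGCP2. No interval was found at TUBGCP3, TUBGCP4, TUBGCP5, TUBGCP6, gamma-tubulin itself (TUBG1), its adaptor NEDD1 or the activator CDK5RAP2.

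Centriolar satellites are granules that carry proteins to the centrosome and the cilium. Of 5 satellite genes, 2 had an interval at an end, including the member with the highest score. PCM1, the scaffold of the granules, had an interval of 516 bp on chromosome 8 (17922910 to 17923425), scored 51 and at percentile 88.4. It was the widest of the members' intervals, its midpoint was 179 bp from the end of PCM1 with the lower coordinate, and it also overlapped LOC124901867. CEP131, a satellite protein needed for cilium formation, had one of 397 bp on chromosome 17 (81223258 to 81223654), scored 32. CEP72, CEP126 and CEP290 had none.

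Among 12 genes of the centriolar appendages and of cilium formation, 3 had an interval at an end. CEP19, which acts at the mother centriole when a cilium is started, had one of 323 bp on chromosome 3 (196712422 to 196712744), scored 39. CEP20 and CEP43 encode related proteins of the centriole and basal body, and both had an interval. That of CEP20 covered 237 bp of chromosome 16 (15888471 to 15888707) and was scored 37. That of CEP43 covered 396 bp of chromosome 6 (166999409 to 166999804), was scored 27 and stood on 2 lines of the list. The distal appendage genes CEP164, CEP83 and CEP89 had none. CEP350, CEP78, CEP162, CEP41 and CEP128 also had none.

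The linker that ties both centrosomes together before mitosis was represented by CEP68 and CEP250. CEP68 was the only member with 2 intervals at an end. They lay on chromosome 2, one of 229 bp (65055911 to 65056139) scored 28 and one of 392 bp (65056264 to 65056655) scored 35. CEP250, the docking protein of the linker, had none. CEP170 and CEP170B, whose proteins bind microtubules, the cytokinesis gene CEP55, and 7 less described genes, namely CEP15, CEP57L1, CEP70, CEP85L, CEP95, CEP112 and CEP295NL, had none either. Of 5 pairs of related genes, both genes of CEP20 and CEP43 had an interval at an end. In the pairs CEP57 with CEP57L1 and CEP85 with CEP85L, the former gene alone had one. In CEP170 with CEP170B and CEP295 with CEP295NL, neither had.

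The position of the intervals relative to the gene start was examined next. The RefSeq promoter table gives the start and strand of 45 of the 53 genes, including 10 of the 11 with an interval at an end (all but PCM1). It lists several starts for 12 members, and the first one listed was used. At all 10 genes the interval lay at the start and not at the far end, and over all genes with an interval at an end and a known start 95.1% had one at the start side. Intervals of CEP20 and CEP76 and the higher one of CEP68 spanned the start, with midpoints 14 bp downstream, 99 bp upstream and 43 bp downstream of it. Upstream of the start without reaching it were the intervals of CEP85 (midpoint 267 bp upstream), CEP19 (333 bp) and CEP131 (491 bp) and the lower one of CEP68 (391 bp). Downstream were those of PCNT (184 bp), CEP43 (209 bp), CEP63 (697 bp) and CEP57 (919 bp). These positions depend on the start used. By another listed start the midpoint was 327 bp upstream at PCNT and 153 bp upstream at CEP76. It was then 364 bp downstream at CEP63 and 435 bp downstream at CEP57. By the first listed starts, 5 of these 11 intervals had their midpoint upstream (45.5%), compared with 41.9% of 2611 such gene and interval pairs over all genes. The median distance from the start, without regard to side, was 267 bp in the members and 195 bp over all genes. CEP57 was nearest to the limit of 1 kb from inside, and TUBGCP2, at 3306 bp, was the next gene beyond it.

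**Figure D2:**
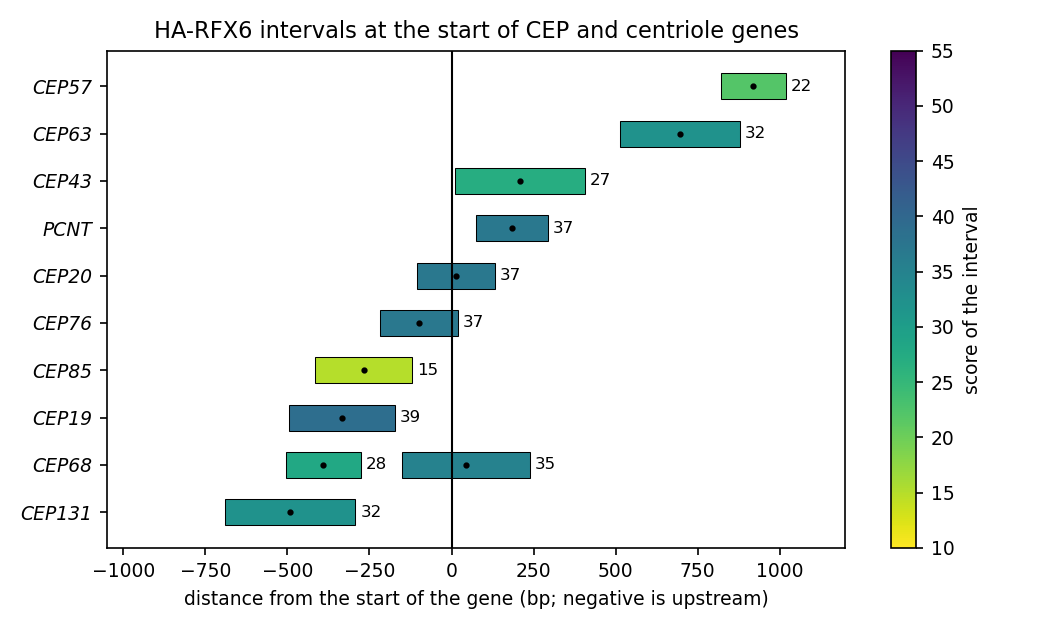
Extent of each interval relative to the gene start (bp, negative is upstream) at the 10 members with an interval at an end and a known start. Bars are intervals, dots their midpoints, and numbers and colours the scores. Intervals of 3 genes span the start, and those of CEP57 and CEP63 lie farthest downstream.

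To show the promoters that the intervals covered, the 250 bases before the start are given for the members whose interval reached into them, in order of score (RefSeq, GRCh38.p14, in the direction of the gene). Capitals mark the bases that lie within a deposited interval. They were 79 bases at CEP19, 104 at CEP20, 217 at CEP76, 152 at CEP68 and 132 at CEP85. The interval of CEP43 began 12 bp after the start and reached none of the bases before it.

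CEP19 (chr3:196712251-196712500, minus strand): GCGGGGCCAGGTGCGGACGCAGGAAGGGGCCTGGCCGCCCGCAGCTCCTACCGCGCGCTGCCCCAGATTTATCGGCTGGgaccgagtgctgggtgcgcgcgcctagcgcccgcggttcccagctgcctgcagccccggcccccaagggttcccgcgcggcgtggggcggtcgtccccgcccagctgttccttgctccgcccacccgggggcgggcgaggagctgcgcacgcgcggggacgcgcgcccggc
CEP20 (chr16:15888604-15888853, minus strand): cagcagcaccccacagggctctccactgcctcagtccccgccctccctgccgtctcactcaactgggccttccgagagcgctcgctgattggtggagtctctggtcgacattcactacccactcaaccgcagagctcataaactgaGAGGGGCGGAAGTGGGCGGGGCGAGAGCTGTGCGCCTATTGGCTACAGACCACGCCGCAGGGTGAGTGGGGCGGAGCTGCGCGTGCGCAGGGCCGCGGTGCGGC
CEP76 (chr18:12702778-12703027, minus strand): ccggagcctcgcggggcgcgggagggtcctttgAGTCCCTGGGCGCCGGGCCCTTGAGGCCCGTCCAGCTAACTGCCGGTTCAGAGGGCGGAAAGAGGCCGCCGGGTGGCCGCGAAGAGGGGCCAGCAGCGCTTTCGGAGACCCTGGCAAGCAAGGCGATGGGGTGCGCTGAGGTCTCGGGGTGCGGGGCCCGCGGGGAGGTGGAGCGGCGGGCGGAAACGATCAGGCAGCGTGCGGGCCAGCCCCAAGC
CEP68 (chr2:65056166-65056415, plus strand): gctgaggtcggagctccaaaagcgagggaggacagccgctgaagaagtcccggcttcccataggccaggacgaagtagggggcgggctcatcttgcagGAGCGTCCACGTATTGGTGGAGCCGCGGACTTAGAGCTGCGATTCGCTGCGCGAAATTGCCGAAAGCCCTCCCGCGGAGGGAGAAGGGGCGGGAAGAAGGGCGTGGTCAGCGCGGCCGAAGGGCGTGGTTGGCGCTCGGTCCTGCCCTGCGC
CEP85 (chr1:26233950-26234199, plus strand): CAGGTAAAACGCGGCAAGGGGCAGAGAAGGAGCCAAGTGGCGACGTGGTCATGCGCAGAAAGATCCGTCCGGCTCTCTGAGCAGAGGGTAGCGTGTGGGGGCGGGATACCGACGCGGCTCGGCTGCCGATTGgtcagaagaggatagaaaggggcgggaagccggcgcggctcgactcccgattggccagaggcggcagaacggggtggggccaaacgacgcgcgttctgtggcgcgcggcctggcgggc

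The capitals run up to the gene start at CEP20, CEP76 and CEP68, whereas at CEP19 and CEP85 they stop 172 and 119 bp before it. These promoters were rich in G and C. Over the window from 250 bases before to 50 after the start, GC content had a median of 69.3% at the 10 members with an interval (51.7% at CEP63 to 77.0% at CEP19) and of 61.3% at 35 members without one at an end. Over all protein-coding genes the medians were 68.0% with an interval and 61.7% without. The number of CpG dinucleotides in the window had a median of 34.5 and 25 in the members, and of 29 and 20 over all genes. Both medians were higher with an interval than without, in the members and over all genes alike.

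Motif letters were then searched in the same windows on both strands. At 40 of the 45 members the start used was within 1 kb of the gene end, but at CEP164, CPAP, TUBGCP3, CEP128 and CEP112 it lay 6.08, 11.1, 17.5, 17.8 and 366 kb inside the gene, where no interval was found within 1 kb of it either. The 6 letters GTTGCC are the core of the X-box. None of the 10 promoters of members with an interval held them, whereas 13 of 35 without an interval at an end did (37.1%), namely those of CEP41, CEP44, CEP85L, CEP89, CEP97, CEP112, CEP126, CEP128, CEP135, CEP164, CPAP, SASS6 and TUBGCP5. Over all protein-coding genes the share was 12.6%, and among those with an interval at an end it was 12.3%. Without the genes whose start lay farther than 1 kb from the gene end, the core was in 9 of 30 members without an interval at an end and in 12.5% of all genes. The X-box with 2 bases between its arms was found at CEP135 among the members, and at 0.858% of all promoters. With 0 to 3 bases allowed between the arms, it was found at CEP135 and CEP41, and at 1.55% of all promoters. The promoter of CEP41 held the core and its reverse complement side by side. Both stretches are shown because they are the closest matches to an X-box in the member promoters, in the direction of the gene and with the core letters in capitals.

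CEP41 (chr7:130441162-130441176, minus strand): GTTGCCcttGGCAAC
CEP135 (chr4:55948888-55948901, plus strand): gttaccggGGCAAC

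The CEP41 letters lie 160 to 146 bases before the start, and those of CEP135 lie 57 to 44 bases before it, where the X-box and the core overlap. Neither gene had an interval at an end or in the body. Letters outside this window were not searched, also where an interval lay wholly outside it, as at CEP131, CEP63, CEP57 and PCNT. At CEP43, 38 bases of the interval of 396 bp were within the window. The lack of the core in these promoters therefore does not show whether their intervals hold it.

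Of the other motifs, CCAAT, the letters bound by NF-Y, was found at 6 of the 10 promoters with an interval (CEP131, CEP20, CEP57, CEP68, CEP85 and PCNT), at 15 of the 35 without (42.9%) and at 36.4% of all promoters. TTTGAA, an element of cell cycle genes known as CHR, was found at CEP57 and CEP76 among those with an interval, at 12 of 35 without (34.3%), which include PLK4 and CEP55, and at 12.1% of all. CCGGAA, the core bound by ETS factors, was found at PCNT among those with an interval, at 14 without (40.0%) and at 22.9% of all. GCGCATGC, a part of the NRF1 site, was found at 0 with an interval, at PLK4 among those without and at 4.26% of all. Among all 2519 protein-coding genes with an interval at an end and a known start, CCAAT was at 36.6% and CHR at 7.03%. The ETS core was at 30.3% of them, above its share over all promoters, and the NRF1 letters were at 5.92%. These letters were counted in the promoter window and not within the intervals. A CCAAT lay inside the interval at CEP20 and CEP68 and across its edge at CEP85. At CEP131, CEP57 and PCNT every CCAAT lay outside it. The CHR letters lay outside the interval at CEP57 and across its edge at CEP76, and the ETS letters lay outside it at PCNT.

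**Figure D3:**
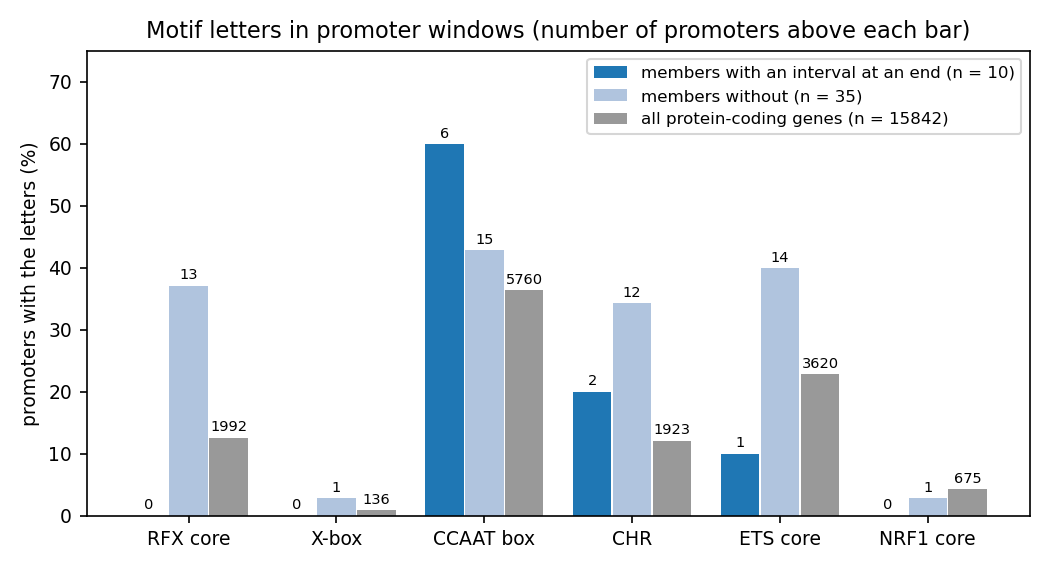
Share of promoter windows (%) that hold the letters of each motif, for 10 members with an interval at an end, 35 members without one there and 15842 protein-coding genes. Numbers above bars are promoters with the letters. The core of the X-box was in 0 of the 10 and in 13 of the 35. At CEP131, CEP63, CEP57 and PCNT the interval itself lay outside the window.

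The scores of the members were compared with those of the list. The 12 intervals at member ends had scores from 15 to 51 with a median of 33.5, and all intervals at ends of protein-coding genes had a median of 32. Their widths ran from 200 to 516 bp with a median of 310 bp, against 282 bp. A score of at least 30 was reached by 8 of the 11 genes, and CEP43, CEP57 and CEP85 stayed below. Among intervals at ends, that of PCM1 alone was above the upper quartile of the list, 39, as was the higher body interval of TUBGCP2. Taking the highest score per gene, the median was 35 in the members and 33 over all genes with an interval at an end.

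**Figure D4:**
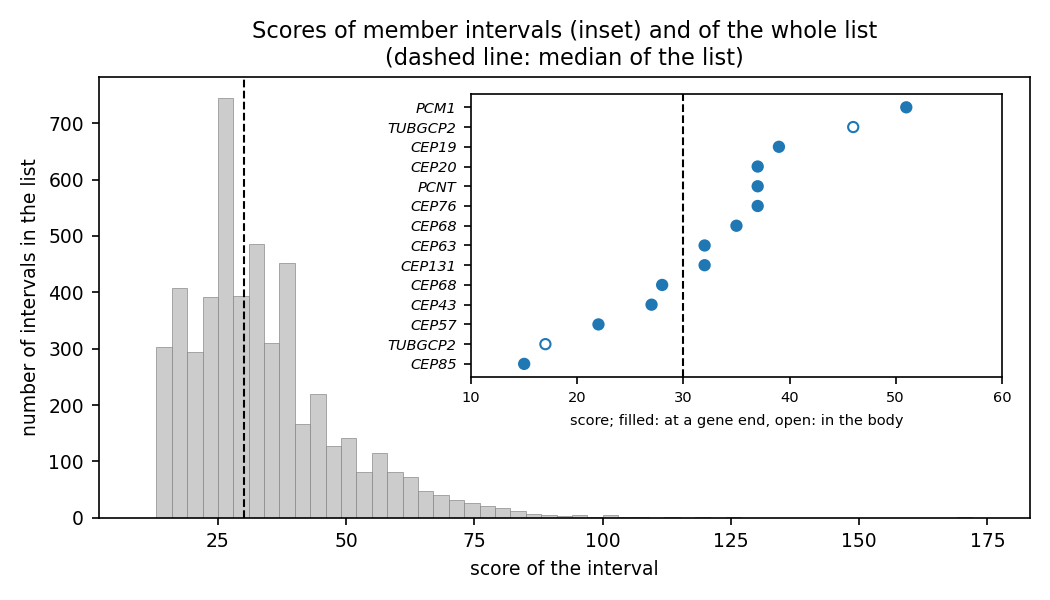
Scores of all 5019 intervals (grey bars, number of intervals per score class of 3) and, in the inset, of each interval at a member. Filled points lie at a gene end, open points in the body of TUBGCP2, and the dashed line is the median of the list, 30. The members' scores run from 15 at CEP85 to 51 at PCM1.

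Some intervals could equally be given to a neighbouring gene. At CEP19, the interval overlapped PIGX, a gene of glycosylphosphatidylinositol anchor synthesis, and its midpoint was 206 bp from an end of PIGX but 333 bp from that of CEP19. At CEP63, the midpoint was 398 bp from an end of ANAPC13, a subunit gene of the anaphase-promoting complex, and 697 bp from that of CEP63. At PCNT, in contrast, the end of PCNT was nearer (184 bp) than that of C21orf58 (470 bp). The interval of CEP76 lay within PSMG2, which encodes a chaperone of proteasome assembly, but 22864 bp from its nearest end. That of PCM1 overlapped LOC124901867, listed as protein-coding, with its midpoint 1820 bp from the nearest end of that gene. At CEP57, the midpoint was 919 bp from the end of CEP57 and 1151 bp from that of FAM76B, just beyond the limit. The ends of 8 of the 11 genes were thus the only protein-coding ends within 1 kb of their intervals. Of all genes with another protein-coding gene end within 1 kb of one of their own ends, 22.3% had an interval at an end, against 12.8% of the others. Among the members these were 6 of 20 (14.5% to 51.9%) and 5 of 33 (6.65% to 30.9%), whose Wilson intervals overlapped.

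The 53 genes lie on 22 chromosomes. The 5 members on chromosomes 4 and 13, namely CEP135, PLK4, CEP44, CPAP and TUBGCP3, had no interval, and few genes of these chromosomes had one (4.94% on chromosome 4 and 5.62% on chromosome 13). The part of the chromosomes in the result was not tested. Of the 41 members without an interval, 33 had none within 25 kb of an end either. The nearest of the other 8 was CEP164, where an interval with a score of 33 lay 5556 bp from an end and within 1 kb of an end of BACE1.

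Other genes of the centrosome were then looked up, from a list of 54 that holds none of the 53 and was also chosen with earlier results of these data known. Of these, 18 had an interval at an end (33.3%, 22.2% to 46.6%), compared with 15.5% of all genes, and KIF24 had one in the body alone. The highest score was at CROCC, which encodes rootletin, the fibre protein of the linker, with 77 at the end and 3 more intervals in its body. CROCC has pseudogene copies on the same chromosome, so the placement of its reads is uncertain. SFI1, whose protein binds centrins, followed with 52, and ALMS1, the gene of Alström syndrome, with 45. Of the 8 subunit genes of augmin, which helps to start new microtubules on other microtubules, 3 had an interval. These were HAUS5, HAUS7 and HAUS8, with highest scores of 27, 13 and 44. AURKA, a mitotic kinase gene, had an interval with a score of 37. The others were AKAP9, BBS4, CETN3, LRRC45, NIN, POC1B, TEDC1, TEDC2, TTBK2, TUBD1 and WDR62. At 8 of the 18 genes an interval also lay within 1 kb of an end of another protein-coding gene. These were AURKA (CSTF1), HAUS7 (BGN), HAUS8 (MYO9B), TUBD1 (RPS6KB1), WDR62 (THAP8), BBS4 (HIGD2B), LRRC45 (RAC3) and POC1B (its readthrough genes). The Wilson interval of this list overlapped that of the 53 genes (12.0% to 33.5%), and no test was made between them, since genes of 1 library are not replicates.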

How the data were processed

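The authors deposited a peak list of the HA-RFX6 ChIP library with a chromosome, start, end, name and whole-number score per line. The submitters' processing notes name MACS2 2.1.0.2 as peak caller. The aligner, and whether the input served as control, are not given in the sources used here. The same notes name GRCh37. The coordinates, however, fit GRCh38: 3054 midpoints were within 1 kb of a protein-coding gene end of RefSeq GRCh38.p14, against 407 and 384 after moves of 20 kb. GRCh38 was therefore used.

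The start and end of 1 line, written with digit separators, were restored. Identical intervals were counted once with their highest score, and 3 mitochondrial ones were left out. Starts were taken as 0-based and are printed 1-based. An interval was at an end when its midpoint was within 1 kb of it, and in the body when inside the gene and farther from both ends. Gene starts, strands and promoter sequences came from the RefSeq promoter table, which matched 15842 of 20037 genes. No test was made, since there is 1 library without replicates. Every member with an interval is named, with position and width, and members without one by symbol, except 1 that is not reported here. The other centrosome genes, role groups and motifs came from general knowledge. Members and lists were chosen with earlier results of these data known. On simulated data, 200 of 200 intervals placed at gene ends and 200 of 200 placed in gene bodies were found. They were placed within the same limits that the lookup uses, in longer genes, so this checks the code of the lookup alone. Python 3.11.15, numpy 2.4.6, pandas 2.3.3, scipy 1.17.1 and matplotlib 3.10.9 were used. Alternatives were scores of at least 20 or 30, merging within 1 kb, windows of 500 bp and 2 kb, any overlap of 1 bp, the nearest gene end alone and the start end alone. A window of 5 kb, any start of the promoter table and other X-box spacers were chosen after the data were seen.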

Additional observations from a re-analysis of the deposited data

How the results depend on the processing

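The 11 members with an interval at an end ranged from 8 to 12 over the alternatives, that is, within 1.5 times the count. For scores of at least 30 there were 8 (15.1%, against 9.50% of all genes), as CEP43, CEP57 and CEP85 were lost. For scores of at least 20 there were 10 (18.9%, against 13.8% of all genes), as CEP85 was lost. By the nearest gene end there were 9 (17%, against 13.4% of all genes), as CEP19 and CEP63 went to PIGX and ANAPC13. With a window of 500 bp there were 9 (17%, against 13.3% of all genes), as CEP57 and CEP63 then counted as body intervals. Merging, a window of 2 kb and any overlap kept the 11 (20.8%, against 15.3%, 17.2% and 15.9% of all genes). A window of 5 kb added TUBGCP2 (22.6%, against 19.8% of all genes). With the start end alone PCM1, whose start is not in the promoter table, dropped out (22.2% of 45 members, against 15.1% of all genes). Members with an interval in the body only numbered 1. There were 3 with a window of 500 bp (5.66%, against 5.52% of all genes) and 0 with a window of 5 kb (against 2.1%), both by construction of the window. The count of other centrosome genes, 18, fell to 11 for scores of at least 30 (20.4%, against 9.50% of all genes). Counted at any start listed in the promoter table there were 11 of 45 members (24.4%, against 16.3% of all genes), with TUBGCP2 in place of PCM1, which has no listed start. The other alternatives stayed within 1.5 times the count for these and for the 12 genes with either position. No paired analysis was possible because a single ChIP library was used, and for the same reason no replicate could be left out. The read depth was unknown.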
